A study of Homo sapiens with 2 samples.

Results

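The replication-dependent histone genes were examined in ARP1-SRD5A1-KD cells cultured without or with doxycycline (Dox). These are the genes whose symbols begin with HIST1H, HIST2H, HIST3H or HIST4H, with those marked PS (pseudogenes) left aside. This gave 75 of the 57485 genes listed, grouped by the histone they encode (6 for H1, 17 for H2A, 23 for H2B, 14 for H3 and 15 for H4) and by gene cluster (55 in HIST1, 15 in HIST2, 4 in HIST3 and 1 in HIST4). The genes were taken up because their difference between these libraries was already known, so all values are a description and carry no test.

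ARP1 is a human multiple myeloma (MM) line, and the cells carried a lentiviral shRNA against SRD5A1 that Dox switches on. RNA-seq was performed on 1 library of untreated cells and 1 library of Dox-treated cells, with 45918570 and 48728927 estimated counts. The dose and the duration of Dox for these libraries are not given in the sources used here. The title of the Dox library names SRD5A1 while its genotype entry names SRD5A2, and the methods state that RNA was pooled before cDNA synthesis without saying which samples. SRD5A1 itself was listed at 13.04 FPKM (fragments scaled by transcript length and library total) without Dox and 25.88 FPKM with Dox, a log2 fold change of 0.98. The RNA that the shRNA targets thus had its higher value in the Dox library, and every direction given here is between these libraries as labelled. All 9 plasma cell markers reached 1 FPKM, whereas the T cell markers (3 genes) and the monocyte markers (3 genes) stayed below 1 FPKM in both libraries. Of the B cell markers 1 of 3 and of the epithelial markers 3 of 4 reached 1 FPKM. Some markers differed by more than 2-fold, with SLAMF7 at 15.73 and 41.75 FPKM (1.40), TNFRSF17 at 97.72 and 203.73 FPKM (1.06) and KRT18 with 339 and 85 counts (-1.99), and their part in the histone values was not tested. With 1 library per condition there was no replicate error, and the intervals given are exact binomial (Clopper-Pearson) 95% intervals that cover counting error alone.

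Histone proteins package DNA into nucleosomes, with pairs of H2A, H2B, H3 and H4 forming the core and the linker histone H1 binding where DNA enters and leaves. Replication-dependent histone genes are transcribed mainly in S phase, lack introns in their usual form, and end in a conserved stem-loop that the stem-loop binding protein SLBP recognises instead of in a poly(A) tail. Some of these genes can also give longer, polyadenylated transcripts that read past the stem-loop or are spliced around it, and these are known from cells that leave the cell cycle or differentiate. RNA for both libraries was selected on poly-T beads, so a histone transcript with no tail is captured poorly and the values are not the total histone RNA of the cells.

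To display this element, the stem-loops of 6 members are printed with 16 bases in capitals and 5 bases on either side. Transcripts that read past the stem-loop also hold it, so its presence alone does not separate the kinds of transcript. The capitals match GG, any 2 bases, CTT, any 1, T, any 1, AG, any 2 and CC. They were read from the transcripts of GENCODE release 29 (GRCh38), and all lie in the 3′ untranslated part of exons of these genes.

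HIST1H2AC (chr6:26124669-26124684, plus strand): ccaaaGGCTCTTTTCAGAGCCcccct
HIST1H2BD (chr6:26158587-26158602, plus strand): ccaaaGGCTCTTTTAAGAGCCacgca
HIST1H2AG (chr6:27133515-27133530, plus strand): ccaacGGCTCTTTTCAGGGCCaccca
HIST1H3E (chr6:26225596-26225611, plus strand): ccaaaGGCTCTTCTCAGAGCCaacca
HIST1H4H (chr6:26285131-26285146, minus strand): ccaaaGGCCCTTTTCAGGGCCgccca
HIST2H4A (chr1:149833032-149833047, plus strand): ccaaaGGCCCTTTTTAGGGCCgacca

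The pattern was present in 0.187% of the 202888 listed transcripts that matched GENCODE, and in at least 1 transcript of 35 members. The form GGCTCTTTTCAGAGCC was the most common, with 18 members of the H2A, H2B and H3 classes. The forms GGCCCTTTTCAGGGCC (5 members) and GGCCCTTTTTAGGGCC (3 members) occurred in H4 members alone. Most of the other members were listed only by their coding sequence, which stops before the stem-loop, so the absence of a match there says nothing about the gene.

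Summed over all members, more histone RNA was found in the library labelled with Dox. The members held 12095 counts without Dox and 34246 with Dox, equal to 263.4 and 702.8 counts per 1000000 counts (CPM). This was a 2.67-fold difference (log2 ratio 1.42, interval 1.39 to 1.45), and the share of the library taken by these genes went from 0.0263% to 0.0703%. In these sums, a larger share of cells that express histone genes and more histone RNA per cell cannot be told apart. Nor can a larger share of histone RNA with a poly(A) tail, since RNA was selected on poly-T beads.

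Of the 75 members, 19 had no count in either library, 15 had counts but stayed under 1 FPKM in both, and 41 reached 1 FPKM in 1 library or both. On the scale of log2(FPKM + 0.1), 31 of these 41 members (75.6%) were more than 2-fold higher in the library labelled with Dox, where 17.0% of all 14859 genes at that level were. HIST1H1E alone (2.44% of the 41) was more than 2-fold lower, compared with 6.41% of all genes. The median log2 fold change of the 41 members was 1.49 and that of all genes 0.15. Because 10 members passed the filter only through the library labelled with Dox and 2 only through the other, a cutoff on the counts of both libraries together is also given. At 100 counts or more over both, 27 members remained. Of these, 21 lay above a 2-fold increase and 0 below a 2-fold decrease, against 14.4% and 5.49% of all 14142 genes at that depth. Scaling by TMM factors subtracted 0.22 from every log2 ratio of counts. It also moved the median of all genes to -0.06 and the shares of all genes past 2-fold to 12.9% higher and 10.4% lower. The members then had a median of 1.27, which left them 1.33 above the median of all genes, as without TMM.

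**Figure D1:**
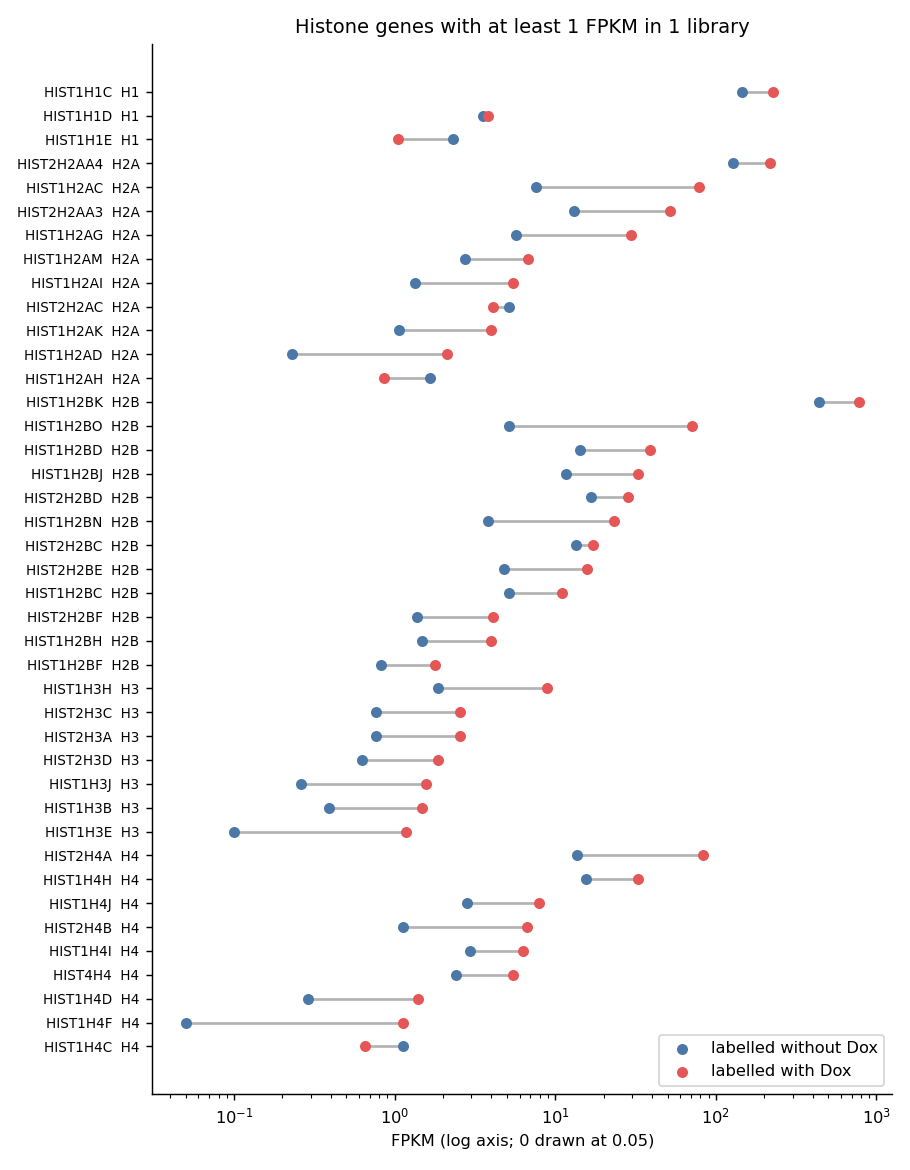
FPKM (log axis, 1 row per gene) of the 41 members that reached 1 FPKM in either library, grouped by class, with a blue point for the library labelled without Dox and a red point for the library labelled with Dox. Red lies to the right of blue in 37 of 41 rows; the 4 exceptions are HIST1H1E, HIST2H2AC, HIST1H2AH and HIST1H4C.

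The classes differed in the size of the change. The linker class H1 went from 2772 to 4505 counts (log2 ratio 0.61, interval 0.55 to 0.68). H2B went from 4602 to 11213 counts (1.20, interval 1.15 to 1.25), H4 from 1348 to 4976 (1.80, interval 1.71 to 1.89) and H2A from 3163 to 12607 (1.91, interval 1.85 to 1.97). H3 was the scarcest class, with 210 and 945 counts (2.08, interval 1.87 to 2.31). The intervals of H1 and H2B overlapped no other, whereas those of H4, H2A and H3 overlapped one another. The H1 share of all member counts went from 22.9% to 13.2%, and that of H2A from 26.1% to 36.8%. These sums rested on a few genes, since the 6 members with the most counts held 71.8% and 68.4% of them. When members with a spliced transcript or one over 1000 bases were left out, the log2 ratio was 0.81 for all members, 0.93 for H2A and 1.13 for H4. Over members with under 10% of their 100-base windows in another gene it was 2.92 for H2A, 1.89 for H2B and 1.22 for H4, which turned the order of H2B and H4, and as a sum of FPKM it was 1.28 for H2A.

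**Figure D2:**
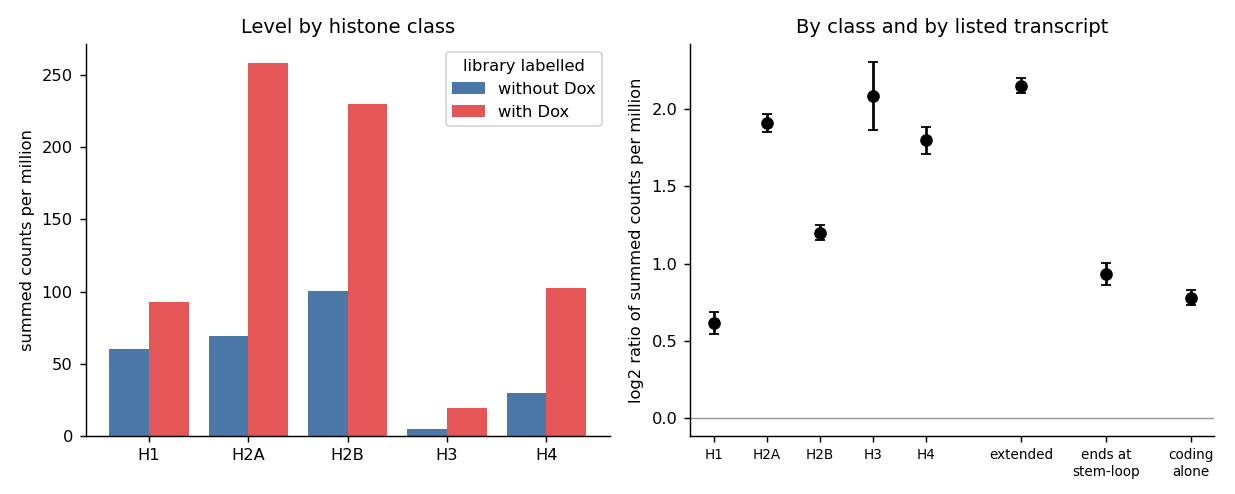
Left, summed CPM of each histone class in the libraries labelled without (blue) and with Dox (red). Right, log2 ratio of the summed CPM (with over without) by class and by kind of listed transcript, with bars for the 95% counting interval; H1 is the lowest class at 0.61, and members with extended transcripts stand at 2.15, those ending at the stem-loop at 0.93 and those listed by coding sequence at 0.78 (4 members of no such kind are not drawn).

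Among the linker histones, HIST1H1C, which encodes H1.2, dominated. It was listed at 144.57 FPKM without Dox and 227.88 FPKM with Dox (2649 and 4401 counts), a log2 fold change of 0.66. HIST1H1D, which encodes H1.3, had 69 and 78 counts and a log2 fold change of 0.10, the smallest among members with at least 100 counts, and with TMM scaling it turned to -0.11. HIST1H1E, which encodes H1.4, had 54 and 26 counts, at 2.30 and 1.05 FPKM (-1.06, interval of the count ratio -1.87 to -0.44), and it was within 2-fold with TPM or a pseudocount of 1 FPKM. Without HIST1H1C the class summed to 123 and 104 counts, a log2 ratio of -0.33 with an interval of -0.72 to 0.06. The higher H1 sum therefore rested on a single gene. HIST1H1A, HIST1H1B and HIST1H1T had no count.

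In the H2A class, HIST1H2AC (chr6:26124145-26139116, plus strand) stood out. It had 486 and 5342 counts, or 7.54 and 78.48 FPKM, with a log2 fold change of 3.36 (interval of the count ratio 3.24 to 3.51). HIST1H2AG followed with 525 and 2909 counts (5.69 and 29.79 FPKM, 2.37). HIST2H2AA4 had the highest H2A level, at 127.04 and 218.30 FPKM (1873 and 3387 counts, 0.78). Its near-identical copy HIST2H2AA3 went from 13.09 to 51.57 FPKM (1.97), but the way reads were split between these copies is uncertain, and their sum of 2057 and 4149 counts gave a log2 ratio of 0.93. The H2A genes of the HIST1 cluster together went from 1070 to 8426 counts, 7.42-fold higher, and those of HIST2 from 2093 to 4181, 1.88-fold higher. HIST1H2AH (11 and 6 counts) and HIST2H2AC (35 and 29 counts) were below 0 at -0.87 and -0.33, with intervals of the count ratio that spanned 0.

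HIST1H2BK (chr6:27146418-27146798, minus strand) was the most abundant member of any class per length. It was listed at 439.59 FPKM without Dox and 775.93 FPKM with Dox (2812 and 5173 counts), a log2 fold change of 0.82. HIST2H2BE had 428 and 1489 counts, at 4.78 and 15.68 FPKM (1.69). HIST1H2BN had 184 and 1035 counts, at 3.82 and 23.24 FPKM (2.57), and its exons overlap HIST1H2AK on the opposite strand, so their reads cannot be told apart where strand was not used in counting. HIST1H2BO (chr6:27893463-27893843, plus strand) went from 33 to 471 counts and from 5.16 to 70.65 FPKM. Its log2 fold change of 3.75 (interval of the count ratio 3.24 to 4.31) was the highest among members with at least 100 counts. The 5 genes annotated as pseudogenes, all of the H2B class, differed less: the near-identical HIST2H2BC and HIST2H2BD summed to 400 and 619 counts (0.54), and the other 3 had none.

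All 7 H3 members at 1 FPKM were listed more than 2-fold higher, but 6 of them reached 1 FPKM only in the library labelled with Dox, so that passing the filter favoured this direction. HIST1H3H alone was at 1 FPKM in both libraries. It had 85 and 430 counts, at 1.86 and 8.90 FPKM (2.20). HIST2H3A and HIST2H3C share the same transcript sequence, so their reads were divided equally, with 49.5 counts each without Dox and 176 each with Dox (0.76 and 2.56 FPKM, 1.63). HIST1H3E had 11 and 107 counts (0.10 and 1.18 FPKM, 2.68).

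Of the 9 H4 members at 1 FPKM, 8 were more than 2-fold higher. HIST2H4A (chr1:149832659-149839767, plus strand) went from 342 to 2206 counts and from 13.56 to 83.00 FPKM (2.60). Its copy HIST2H4B had 70.94 and 456.1 counts (2.48), and both summed to 413 and 2662 counts, 6.07-fold higher. HIST1H4H differed less, with 679 and 1771 counts at 15.43 and 32.76 FPKM (1.08). HIST4H4, the only member of its cluster, on chromosome 12, had 52 and 129 counts (2.41 and 5.43 FPKM, 1.14). HIST1H4C had 10 and 6 counts (-0.71), while HIST1H4F passed 1 FPKM on 4 counts against 0 and HIST1H4D on 5 against 1. With HIST1H4F set to the ratio that a floor of 3 counts allows, the median of the 41 members was 1.47. Below 1 FPKM in both libraries, 4 more members had fewer CPM with Dox, namely HIST1H4E with 34 and 26 counts, HIST1H2AB and HIST1H2BI with 4 and 0 each, and HIST1H3D with 1.31 and 0.

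Position within the clusters was also described. The HIST1 cluster on chromosome 6 falls into 3 stretches separated by more than 500000 bases. The first stretch (chr6:25726132-26285638, 34 members) went from 4502 to 13403 counts (log2 ratio 1.49), and the second (chr6:27125897-27147515, 5 members) from 3651 to 8946 counts (1.21). The third (chr6:27807444-27893843, 16 members) held only 363 and 2156 counts and had the highest ratio at 2.48 (interval 2.32 to 2.65). All of its 8 members at 1 FPKM were more than 2-fold higher, beside 17.0% of all genes. Of these 8, HIST1H3J (0.26 and 1.56 FPKM) reached 1 FPKM only with Dox. HIST1H2AM overlaps HIST1H3J and HIST1H2AK overlaps HIST1H2BN, so the 8 are not separate observations. By cluster, HIST1 as a whole stood at 1.44 and HIST2, on chromosome 1, at 1.36. The 4 members of HIST3 had 0 counts without Dox and 1.02 with Dox, under the 3 counts that a count of 0 allows.

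**Figure D3:**
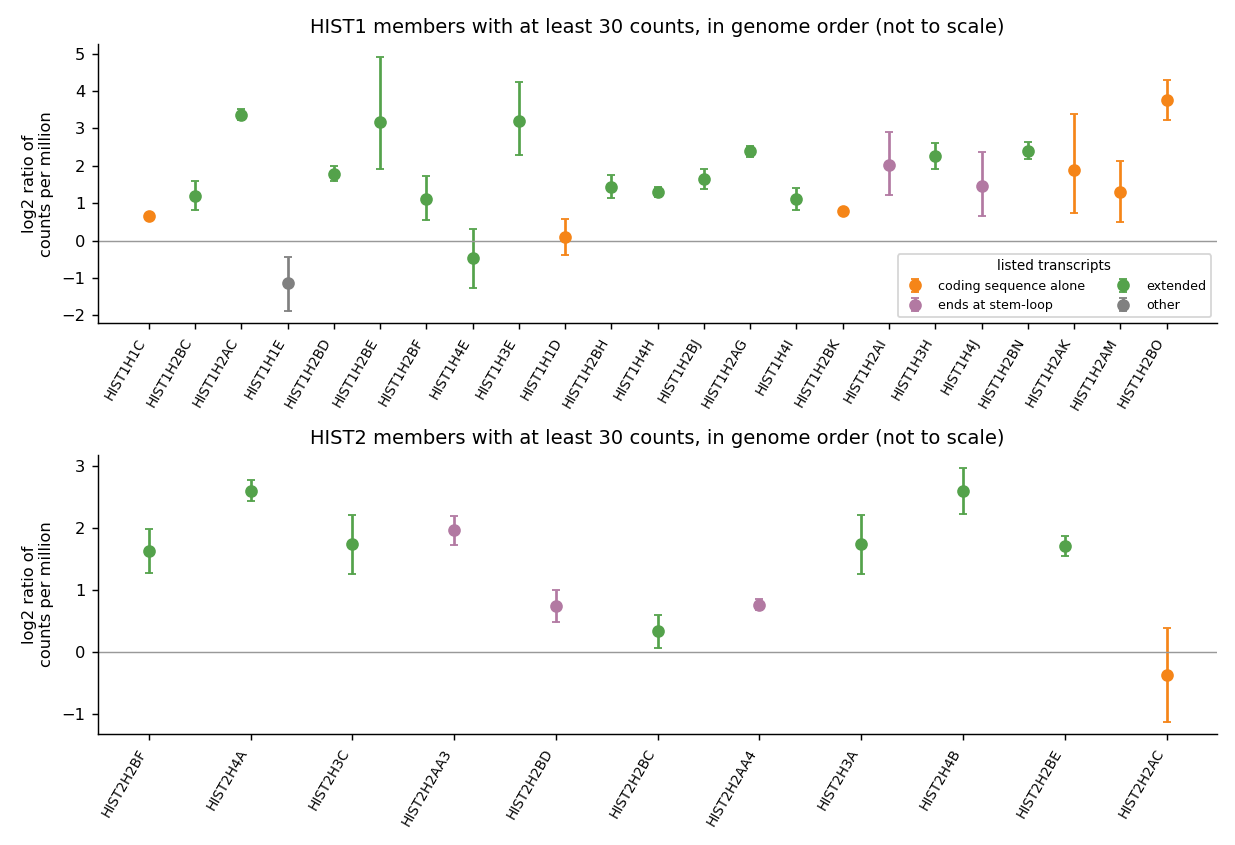
Log2 ratio of CPM (with over without Dox) of HIST1 members (top) and HIST2 members (bottom) with at least 30 counts over both libraries, in genome order, coloured by the kind of transcript listed for the gene, with bars for the 95% counting interval. Most extended members (green) lie above 1, while HIST1H1C and HIST1H2BK (orange, listed by coding sequence) lie at 0.65 and 0.79; 3 other orange members lie above 1, HIST1H2AM at 1.29, HIST1H2AK at 1.89 and HIST1H2BO at 3.75.

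The members were then grouped by the transcripts that the tables list for them, which the choice of genes had not used. Extended members (29) had at least 1 transcript that ran more than 100 bases past the stem-loop or was spliced without it, 10 members had transcripts ending near the stem-loop, and 32 were listed by the coding sequence alone. The other 4 (HIST1H1E, HIST1H1T, HIST1H2BA and HIST1H4C) went from 64 to 32 counts (log2 ratio -1.09). Extended members went from 4090 to 19293 counts (log2 ratio 2.15, or 4.44-fold with an interval of 4.30 to 4.60). Members ending at the stem-loop went from 2282 to 4618 counts (0.93, or 1.91-fold with an interval of 1.81 to 2.01), and those listed by the coding sequence alone went from 5659 to 10303 counts (0.78, or 1.72-fold with an interval of 1.66 to 1.77). As sums of FPKM the log2 ratios were 1.89, 0.96 and 0.86. Extended members held 33.8% of the members' counts without Dox and 56.3% with Dox. At 100 counts or more over both libraries, 19 of 20 extended members were more than 2-fold higher, compared with 2 of 7 of the rest. HIST1H2BO and HIST2H2AA3 were those 2. The medians of members at 1 FPKM lay closer together than the sums, at 1.63 for extended members, 1.47 for those ending at the stem-loop and 1.42 for the coding sequence alone. The extended median was the value of HIST2H3A and HIST2H3C (0.76 and 2.56 FPKM). That of the coding sequence group was the value of HIST2H3D (0.63 and 1.85 FPKM). All of these reached 1 FPKM only with Dox, so passing the filter favoured this direction. Its part in the closeness of the medians was not tested. HIST1H2BK and HIST1H1C held 96.5% of the counts of the coding sequence group without Dox and 92.9% with Dox, and HIST2H2AA4 and HIST2H2AA3 held 90.1% and 89.8% of the group ending at the stem-loop. Without the 2 members with the most counts in each kind, a setting chosen after the values were seen, the coding sequence group stood at 1.80 (interval 1.57 to 2.04) on 197 and 729 counts, extended members at 1.76 (interval 1.70 to 1.81) and the group ending at the stem-loop at 0.97 (interval 0.74 to 1.21). The lower sum of the coding sequence group therefore rested on HIST1H2BK and HIST1H1C. A polyadenylation signal (AATAAA or ATTAAA) in the last 50 bases of a listed transcript also divided the sums. The log2 ratio was 1.90 for the 24 members with one (median 1.63) and 0.78 for the 51 without (median 1.11). Without the 2 leading members of each, again HIST1H2BK and HIST1H1C in the group with no signal, these sums were 1.96 and 1.06. This grouping differs from that by kind of transcript in its main genes. HIST2H2AA3 and HIST2H2AA4, which led the group ending at the stem-loop, have a signal. A gene listed by its coding sequence may also make longer RNA, whose reads outside that sequence would not be counted.

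For HIST1H2BD and HIST1H2BC, each listed with a transcript holding the stem-loop and a spliced transcript without it, the deposited mean transcript length gives how the estimate divided the reads. HIST1H2BD has a 496-base transcript that ends 39 bases after the stem-loop and a 789-base spliced one. The estimated share of its molecules in the spliced transcript was 40.5% without Dox and 75.0% with Dox. Its spliced transcript went from 144 to 773 counts (log2 ratio 2.34, interval 2.08 to 2.61), whereas the transcript with the stem-loop had 98 and 119 counts (0.19, interval -0.20 to 0.60). HIST1H2BC (571 and 659 bases) went from 23.9% to 51.2% spliced, with 23 and 114 counts in the spliced transcript (2.19, interval 1.57 to 2.94) and 59 and 85 in the other (0.45, interval -0.06 to 0.95). In both genes the difference between the libraries was assigned mostly to the spliced transcript. The stem-loop transcript of HIST1H2BD has a polyadenylation signal in its last 50 bases. That of HIST1H2BC runs 116 bases past the stem-loop, the extended kind. The division is thus not one between RNA with and without a poly(A) tail. HIST1H2BE, under 1 FPKM, was assigned 8.85% and 93.6% of its molecules in a 2585-base transcript, on 5.19 and 50.04 counts. HIST1H3E went the other way, from 100% to 74.5% in its 2679-base transcript, on 11 and 107 counts. Of the 12 members at 1 FPKM with several listed transcripts, the mean length was longer with Dox in 8 and shorter in 4. The intervals leave out the error of dividing reads between transcripts that share most of their bases.

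Promoters were examined since H2A and H2B genes often share one and are read in opposite directions. Of the 75 members, 61 matched a RefSeq promoter (GRCh38.p14, 250 bases before to 50 after the start). The octamer ATTTGCAT, a site bound by POU2F1 (Oct-1), occurred on either strand in 11 of 14 H2A promoters and 14 of 18 H2B promoters, in none of the H1, H3 and H4 promoters, and in 1.77% of all 35116 promoters. CCAAT was in 51 of 61 members (34.6% of all promoters) but in 3 of 13 H4 promoters, and TATAAA was in 40 of 61 (11.5% of all promoters). Both strands were searched, and a TATAAA match can overlap its reverse complement. The 13 members at 1 FPKM with the octamer had a median log2 fold change of 1.49, and the 20 without it 1.63. The windows of 11 of the 14 H2A promoters overlapped that of an H2B gene, so these counts are not independent.

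The promoters of the H2A and H2B members with the highest fold change and of the most abundant member were read on the strand of the gene, with matches to these 3 motifs on either strand in capitals.

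HIST1H2AC (chr6:26123922-26124221, plus strand): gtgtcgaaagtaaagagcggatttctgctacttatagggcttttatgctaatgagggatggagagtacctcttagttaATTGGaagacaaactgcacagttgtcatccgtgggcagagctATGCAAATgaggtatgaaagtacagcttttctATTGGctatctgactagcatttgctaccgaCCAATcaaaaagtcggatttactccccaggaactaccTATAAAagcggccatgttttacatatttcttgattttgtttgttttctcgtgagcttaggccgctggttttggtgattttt
HIST1H2BO (chr6:27893175-27893474, plus strand): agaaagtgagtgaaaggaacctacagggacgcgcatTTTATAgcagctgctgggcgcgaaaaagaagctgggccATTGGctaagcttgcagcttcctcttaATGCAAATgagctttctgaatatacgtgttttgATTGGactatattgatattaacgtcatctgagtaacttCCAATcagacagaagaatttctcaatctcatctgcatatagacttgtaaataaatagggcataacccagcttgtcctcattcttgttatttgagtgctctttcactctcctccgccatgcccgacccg
HIST1H2BK (chr6:27146806-27147105, minus strand): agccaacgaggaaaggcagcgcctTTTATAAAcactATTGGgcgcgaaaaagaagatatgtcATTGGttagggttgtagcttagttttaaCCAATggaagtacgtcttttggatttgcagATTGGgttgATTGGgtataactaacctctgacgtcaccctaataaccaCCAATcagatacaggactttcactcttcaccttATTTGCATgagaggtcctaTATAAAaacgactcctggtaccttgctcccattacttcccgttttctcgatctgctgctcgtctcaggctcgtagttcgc

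All 3 promoters hold the octamer and CCAAT, but the octamer lies nearer the start and on the other strand in HIST1H2BK, and HIST1H2BO has no TATAAA close to its start. Genes on either side of one promoter differed in fold change. HIST1H2AC stood at 3.36 and its neighbour HIST1H2BC at 1.09, HIST1H2AM at 1.28 and HIST1H2BO at 3.75, and HIST2H2AC at -0.33 and HIST2H2BE at 1.69. Of the 6 such pairs with both genes at 1 FPKM, both were more than 2-fold higher in 5, beside 17.0% of all genes taken singly. HIST1H2AD (0.23 and 2.11 FPKM) and its pair HIST1H2BF (0.82 and 1.79 FPKM) reached 1 FPKM only with Dox, so the filter favoured this direction. The H2A gene had the larger fold change in 3 and the H2B gene in the other 3. This split is uncertain, since HIST1H2AD, HIST1H2AK and HIST1H2AM overlap exons of another gene. Only genes with a matched promoter were paired. HIST1H2AH (-0.87), which lies beside HIST1H2BK (0.82) on the opposite strand, matched none and was left out.

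Other genes of histone metabolism were compared by lists. Most of the replication-independent histone genes are polyadenylated and expressed through the cell cycle. The 10 genes of this list at 1 FPKM had a median log2 fold change of 0.30. Of them, 2 were past 2-fold upwards and 0 downwards, near the 17.0% and 6.41% of all genes. Both were linker histones: H1F0 (H1.0) was listed at 260.11 and 885.05 FPKM (1.77) and H1FX (H1.10) at 49.54 and 130.7 FPKM (1.40). H2AFX, the histone phosphorylated at DNA breaks, was listed at 77.31 and 51.46 FPKM (-0.59), and H3F3B, one of the H3.3 genes, at 278.36 and 412.83 FPKM (0.57).

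In the list of histone RNA synthesis and 3′ processing (19 genes), 1 was lower by more than 2-fold and 0 were higher, and the median was -0.07. The lower gene was SRRT (ARS2), which links the cap-binding complex to RNA processing, at 139.18 and 48.93 FPKM (-1.51). CSTF2 (-0.85), a cleavage stimulation factor subunit, CASP8AP2 (0.82), a histone locus body protein, and ZNF473 (-0.80), a zinc finger protein of the histone pre-mRNA processing complex, stayed within 2-fold. SLBP was listed at 109.85 and 115.53 FPKM (0.07, which TMM scaling would place below 0), and NPAT, the coactivator of histone gene transcription, at 9.22 and 8.08 FPKM (-0.19). Of 10 genes of histone RNA decay, the exonuclease XRN1 was more than 2-fold higher (10.63 and 28.68 FPKM, 1.42) and 0 were lower (median -0.07). Among 16 histone chaperones, 0 were higher and the histone importin IPO4 was lower (54.12 and 22.35 FPKM, -1.27), with a median of -0.14. Over all genes, 17.0% were higher and 6.41% lower, so the counts of lower genes in these lists lie near that share.

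The S-phase genes lay mostly below 0, on the other side from the histone members. Of 16 genes, 0 were more than 2-fold higher and 1 was lower, beside 17.0% and 6.41% of all genes. The lower one was RRM2, a subunit of ribonucleotide reductase (565.09 and 250.42 FPKM, -1.17). The median was -0.43, with 4 genes above 0. TYMS, the thymidylate synthase, had -0.94 and the replicative helicase subunit MCM2 -0.84. RNAs whose 3′ end is not made by polyadenylation were also listed. With 8 of 21 at 0 counts in both libraries and others on few counts, they cannot measure how such RNA passed the poly-T selection. Of the 21 genes, 11 reached 1 FPKM, with a median of -0.27, the value of MALAT1. More than 2-fold higher was 1 and lower were 3, beside 17.0% and 6.41% of all genes. NEAT1, which has a polyadenylated short form, was the higher one (200.93 and 518.1 FPKM, 1.37). RMRP had 66 and 37 counts (-0.86). The lower ones rested on few counts: TERC on 28 and 13.46, RNU2-2P on 3.38 and 0, and RNU1-1 on 1.89 and 0.22. SNORD3A was within 2-fold in FPKM, at 39.68 and 30.84 (-0.36). By its counts of 364.07 and 120.55 it was more than 2-fold lower, with an interval of the count ratio of -1.98 to -1.37. The part of the poly-T selection, of SRRT and of the S-phase genes in the histone values was not tested.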

How the data were processed

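RNA of 1 library without and 1 with Dox was analysed. The authors deposited expected counts per gene (reads that match several transcripts are apportioned), TPM and FPKM values, mean and effective lengths and the transcripts of each gene. The submitters' processing notes name HISAT2 2.1.0, StringTie 1.3.4d, Bowtie 0.12.2 and hg19, whereas 202888 of 204675 listed transcripts matched GENCODE release 29 by identifier. Coordinates, types and stem-loops were therefore taken from that release (GRCh38), and no strand setting was given. How reads were counted is not given in the sources used here.

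Fold changes are log2 ratios of FPKM after adding 0.1, a pseudocount that understates changes of low genes, over genes that reached 1 FPKM in either library. Sums were compared as CPM (counts per 1000000 counts), in which 3 counts equal 0.0653 and 0.0616. With 1 library per condition no test was run and no p-value is given. The share of a gene's molecules in its longer transcript was solved from the deposited mean length of the gene. edgeR 4.0.16 (TMM) and DESeq2 1.42.0 (size factors), on counts rounded to whole numbers, gave alternative scalings in R 4.3.3. Python 3.11.15 with pandas 2.3.3, numpy 2.4.6, scipy 1.17.1 and matplotlib 3.10.9 was used otherwise. The calculations were tested on simulated data.

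The members and lists were chosen with earlier results of these data known. Any histone member could be named, with full values for the 3 members of each class with most counts, the highest and lowest fold change among members with at least 100 counts and every member lower with Dox at 1 FPKM, the rest of the lower members by their counts. SRD5A1, SLBP, NPAT and up to 4 genes of each other list with the largest change among those with at least 5 FPKM were also named. TERC, SNORD3A and 3 cell markers were added after their values were seen. Of the members, 17 have at least 50% of their 100-base windows in another gene and 15 overlap exons of another gene, so their single values are uncertain.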

Additional observations from a re-analysis of the deposited data

How the results depend on the processing

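No paired analysis was possible because each condition had 1 library. The count of members more than 2-fold higher (31) was 23 with a pseudocount of 1 FPKM (10.8% of all genes), 18 of 24 with a filter of 5 FPKM (12.0% of all genes) and 26 with TMM or DESeq2 scaling (12.9% and 13.0%). The count more than 2-fold lower (1) was 0 with that pseudocount, that filter or TPM (4.38%, 5.75% and 5.24% of all genes), 4 of 75 with no filter (3.30% of all genes), and 2 with TMM or DESeq2 scaling (10.4% and 10.2%). The median was 1.02 with a pseudocount of 1 and 1.08 with no filter.

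The summed log2 ratio of all members was 1.20 with TMM, 1.21 with DESeq2 size factors and 1.05 as a sum of FPKM. It was 1.56 without the member with the most counts, 0.81 without members with a spliced transcript or one over 1000 bases, and 1.67 over members with under 10% of windows in another gene, an alternative chosen after seeing the data. In the same order (TMM, DESeq2, FPKM, without the leading member, without long or spliced members, few shared windows), H2A gave 1.69, 1.70, 1.28, 1.35, 0.93 and 2.92. H2B gave 0.98, 0.99, 0.98, 1.67, 0.86 and 1.89. H1 gave 0.40 and 0.41 with the scalings and -0.33 without HIST1H1C. H3 gave 1.87 with TMM, 1.51 without long or spliced members and 2.36 with few shared windows. H4 gave 1.58 and 1.59 with the scalings, 1.38 without HIST2H4A, 1.13 without long or spliced members and 1.22 with few shared windows. Without the 2 members with the most counts in each kind, also chosen after seeing the data, extended members gave 1.76, those listed by coding sequence alone 1.80, and members with and without a polyadenylation signal 1.96 and 1.06. Apart from H1 without HIST1H1C, every sum kept its direction in the alternatives run. TMM and DESeq2 subtract a constant by construction, and the cause of the other shifts was not tested. The H3 class and the third HIST1 stretch are limited by depth, with 210 and 363 counts without Dox.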

Other observations

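Of the 10 histone genes marked PS, which were left out of the members, 8 had no count in either library. HIST1H1PS1 had 4 counts without Dox and 3.11 with Dox, and HIST1H2APS4 had 3 and 0.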
